A study of Rattus norvegicus with 48 samples.

Results

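miR-31a-5p, miR-205 and miR-9a-5p (listed with the rat prefix as rno-miR-31a-5p, rno-miR-205 and rno-miR-9a-5p) are 3 of the 188 mature miRNAs listed in a small RNA profile of the rat nephron, and their values are described here across the 4 kidney regions that were sampled. They were chosen by their TMM-normalized values in these same libraries, which stood highest in the collecting duct. Their collecting duct level against the other segments is therefore a description with no test. Differences among the other segments, and between the animals, were not what the choice was made on and were tested. The levels of the other segments did enter it, since the collecting duct was set against them, and earlier results were known. These tests are therefore not fully independent of the choice.

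Kidneys came from 3 untreated male Sprague-Dawley rats aged 6 months. Laser capture took collecting duct and thick ascending limb (labelled thick Henle loop) from each rat, proximal tubule from each rat, and glomeruli from rats 1 and 3, out of frozen sections 8 µm thick. Per the labels' protocols the collecting duct was recognised by antibody to aquaporin-2, the thick ascending limb by Tamm-Horsfall protein and the proximal tubule by glutathione S-transferase, whereas glomeruli were recognised by a histochemical stain. Each of the 4 segments thus had its own stain, and stain and segment cannot be told apart in any of them. All animals were of 1 strain, 1 sex and 1 age, none was exposed to a compound, and each of the 11 libraries was sequenced on 4 flow cells. A further glomerulus library, also labelled rat 3 and marked by the submitters as removed, was not analysed here. Glomeruli of rat 2 are missing among the labels, so whether the library kept as rat 3 came from that animal cannot be told from the labels, which touches the rat term and each comparison within rat 3 that holds the glomerulus.

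miRNAs are short RNAs that, loaded into an Argonaute protein, lower the translation and stability of mRNAs that pair with the seed, bases 2 to 8 of the miRNA. miR-31 is known from epithelia such as skin and gut and from several carcinomas. miR-205 is known from skin, cornea and other stratified epithelia, where it represses the ZEB transcription factors together with the miR-200 family. miR-9 is known above all from the brain, where it acts in neural progenitors and neurons. The collecting duct is the last segment of the renal tubule, in which principal cells take up water through aquaporin-2 and intercalated cells handle acid and base.

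The mature sequences are shown first because each value below counts reads that the authors assigned to these RNAs; how many mismatches or length variants they allowed is not given in the sources used here. They are written 5′ to 3′ with the seed in capitals, from RefSeq with the build GRCr8.
miR-31a-5p: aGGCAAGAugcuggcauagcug
miR-205: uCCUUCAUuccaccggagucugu
miR-9a-5p: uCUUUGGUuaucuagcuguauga
The seeds differ from each other, and among 693 mature rat miRNA names searched none shared the seed of miR-31a-5p, miR-205 or miR-9a-5p. The closest other mature sequence lay 6 edits away for miR-31a-5p (miR-449c-5p), 8 for miR-205 (miR-141-5p) and 6 for miR-9a-5p (miR-9b-5p). None of these neighbours is among the miRNAs analysed here, where the nearest sequences were 9 edits away for each of the 3. RefSeq gave a mature sequence for 172 of the 188 names.

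The genes differ in number. miR-31a-5p comes from Mir31 at chr5:108714906-108714927 on the minus strand, overlapping the long noncoding RNA gene LOC130062807. miR-205 comes from Mir205 at chr13:107564588-107564610 on the minus strand, where the annotation lists no overlapping gene. miR-9a-5p has 3 source genes with identical mature sequence, so reads of it cannot be assigned to Mir9-1, Mir9-2 or Mir9-3. The mature RNA lies at chr2:175974986-175975008, chr2:15933307-15933329 and chr1:142849415-142849437, each time on the plus strand, within genes annotated as LOC100911992, Mir9-2hg and Mir9-3hg in that order. All positions are on GRCr8. The submitters' own build was rn6, so these positions are not those of their alignment. The 3 hairpins of miR-9a-5p show why the genes cannot be told apart from the mature reads: the capitals mark the mature arm, which is the same in each, while loops and flanks differ.
Mir9-1: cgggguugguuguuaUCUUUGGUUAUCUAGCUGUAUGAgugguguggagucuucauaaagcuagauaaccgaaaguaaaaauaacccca
Mir9-2: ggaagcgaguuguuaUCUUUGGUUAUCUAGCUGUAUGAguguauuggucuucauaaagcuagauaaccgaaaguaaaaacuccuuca
Mir9-3: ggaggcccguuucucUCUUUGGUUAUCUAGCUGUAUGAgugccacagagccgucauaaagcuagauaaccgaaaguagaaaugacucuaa
The hairpins of Mir31 and Mir205 hold the mature arm on the 5′ side in the same way.
Mir31: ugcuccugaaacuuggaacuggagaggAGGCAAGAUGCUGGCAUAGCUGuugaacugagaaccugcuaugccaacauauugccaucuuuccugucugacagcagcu
Mir205: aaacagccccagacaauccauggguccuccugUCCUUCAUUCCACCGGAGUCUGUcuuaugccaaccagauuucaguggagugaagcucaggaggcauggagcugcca
Mir31 shares its place with Mir3554, and each Mir9 gene with a copy of Mir3597, the source of miR-9b, on the opposite strand. The other arms, miR-31a-3p and miR-9a-3p, were not analysed here.

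Values are the authors' TMM-normalized read counts (a scaling that aligns the bulk of miRNAs between libraries), averaged over the 4 flow cells of a library. The step between low values of a run gives the value of 1 read, and from it the number of reads behind each value. All 132 values of the 3 miRNAs were whole numbers of reads within 0.03 reads. The libraries held 631112 to 788818 estimated reads in the collecting duct, 218882 to 1296993 in thick ascending limb, 241314 to 914255 in proximal tubule, and 147996 (rat 3) and 807909 (rat 1) in the glomerulus. The rat 3 glomerulus library had the lowest depth and the lowest summed value of the 11, 77457 against 165055 in that of rat 1. The marker lists followed the labels where the table offers markers. The summed value of the 2 measured proximal tubule markers, miR-192-5p and miR-194-5p, was 21130 to 26367 in proximal tubule against at most 4280 in any library of another segment. The 2 endothelial markers, both arms of miR-126a, summed to 4299 and 6290 in the glomerulus, above the highest tubule library at 3170. The lists hold no miRNA that defines the collecting duct, so its label rests on the antibody.

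miR-31a-5p had a value of 257, 457 and 536 in the collecting duct of rats 1, 2 and 3. It had 21.4, 9.82 and 41.4 in the matching thick ascending limb, 7.24, 3.15 and 4.02 in the matching proximal tubule, and 0 in both glomerulus libraries. Every segment was separate from the next: the lowest collecting duct library lay above the highest thick ascending limb library, and so on down to the glomerulus. The mean of 417 ± 144 in the collecting duct (SD, n = 3) was 17.2 times that in thick ascending limb, 24.2 ± 16.0, and 86.8 times that in proximal tubule, 4.80 ± 2.15. Without the rat 3 library of the thick ascending limb the first of these ratios was 26.7. These means rest on 4254 reads in the collecting duct, 375 in thick ascending limb and 47 in proximal tubule. In the glomerulus there was no read among 955905 of both libraries, which allows up to 3 reads over the group, a value of 0.381. Against that limit the collecting duct was at least 1095-fold higher. The limit rests on both libraries: the collecting duct was at least 680-fold higher without the glomerulus of rat 3 and at least 265-fold higher without that of rat 1.

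miR-205 had a value of 122, 201 and 161 in the collecting duct of rats 1, 2 and 3. It had 17.2, 53.3 and 21.4 in thick ascending limb, 41.2, 10.4 and 17.8 in proximal tubule, and 8.73 and 5.97 in the glomerulus of rats 1 and 3. The collecting duct stood apart and the glomerulus was lowest, while thick ascending limb and proximal tubule overlapped. The collecting duct mean of 161 ± 39.3 (SD, n = 3) was 5.27 times that of the thick ascending limb, 30.6 ± 19.8. It was 6.97 times that of the proximal tubule, 23.1 ± 16.0, and 21.9 times that of the glomerulus, 7.35 ± 1.96 (n = 2). The ratio to thick ascending limb was 8.36 without its rat 2 library, and that to proximal tubule 11.4 without its rat 1 library. Unlike miR-31a-5p, miR-205 was read in every run of every library, with 1639, 329, 214 and 50 reads over the segments in the same order.

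miR-9a-5p had a value of 57.1, 69.3 and 50.3 in the collecting duct of rats 1, 2 and 3. It had 5.74, 6.10 and 9.76 in thick ascending limb, 0.700, 0.976 and 6.69 in proximal tubule, and 0.896 and 0 in the glomerulus of rats 1 and 3. The collecting duct again stood apart, and the proximal tubule overlapped with the segments on either side of it. The collecting duct mean of 58.9 ± 9.64 (SD, n = 3) was 8.18 times that of the thick ascending limb, 7.20 ± 2.22, and 21.1 times that of the proximal tubule, 2.79 ± 3.38. The proximal tubule mean rests on its rat 3 library, with 9 reads, and without it the ratio was 70.3. Outside the collecting duct the reads were few, with 96 in thick ascending limb, 18 in proximal tubule and 5 in the glomerulus against 602 in the collecting duct. The proximal tubule libraries had 3, 6 and 9 reads in rats 1, 2 and 3, too few to order rats 1 and 2. As a share of library reads, the 95% Poisson interval of rat 3 lay just above those of rats 1 and 2. Its lower limit was 4.12 of 241314, against upper limits of 8.77 of 544752 in rat 1 and 13.1 of 914255 in rat 2. The 0 of the rat 3 glomerulus allows up to 3 reads of 147996. Such limits cover counting error only, because PCR copies of 1 molecule are counted separately.

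**Figure D1:**
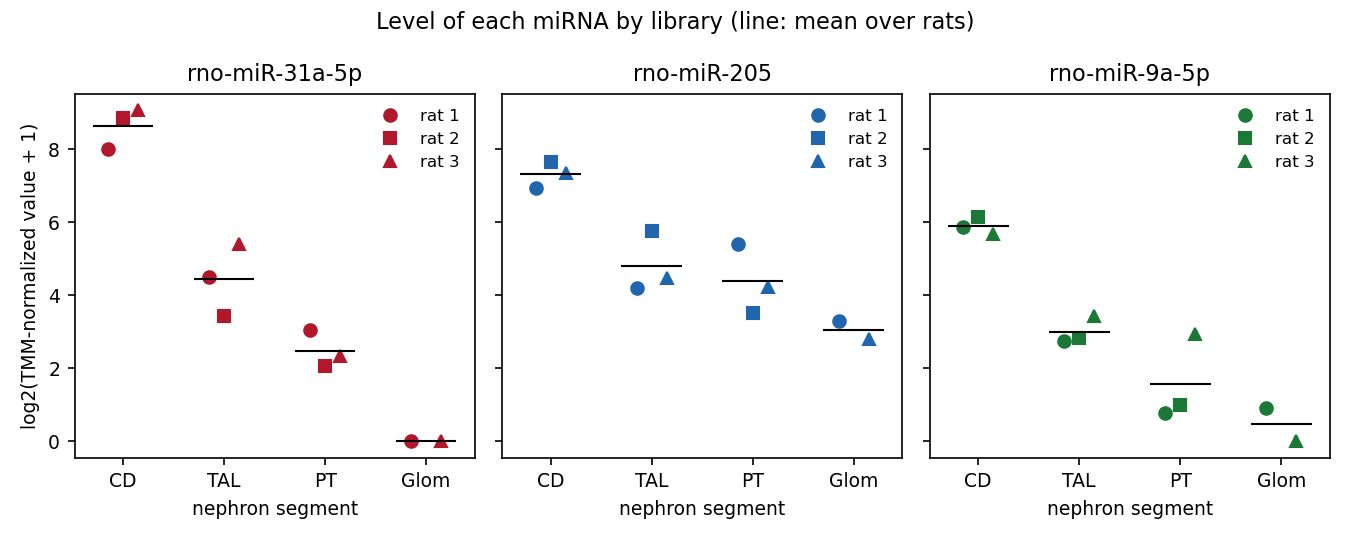
Value of each miRNA by library on the log2(value + 1) scale (vertical axis) in collecting duct (CD), thick ascending limb (TAL), proximal tubule (PT) and glomerulus (Glom). Symbols are rats and lines the mean over rats. All 3 miRNAs were highest in every collecting duct library, and miR-31a-5p was at 0 in both glomerulus libraries.

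**Figure D2:**
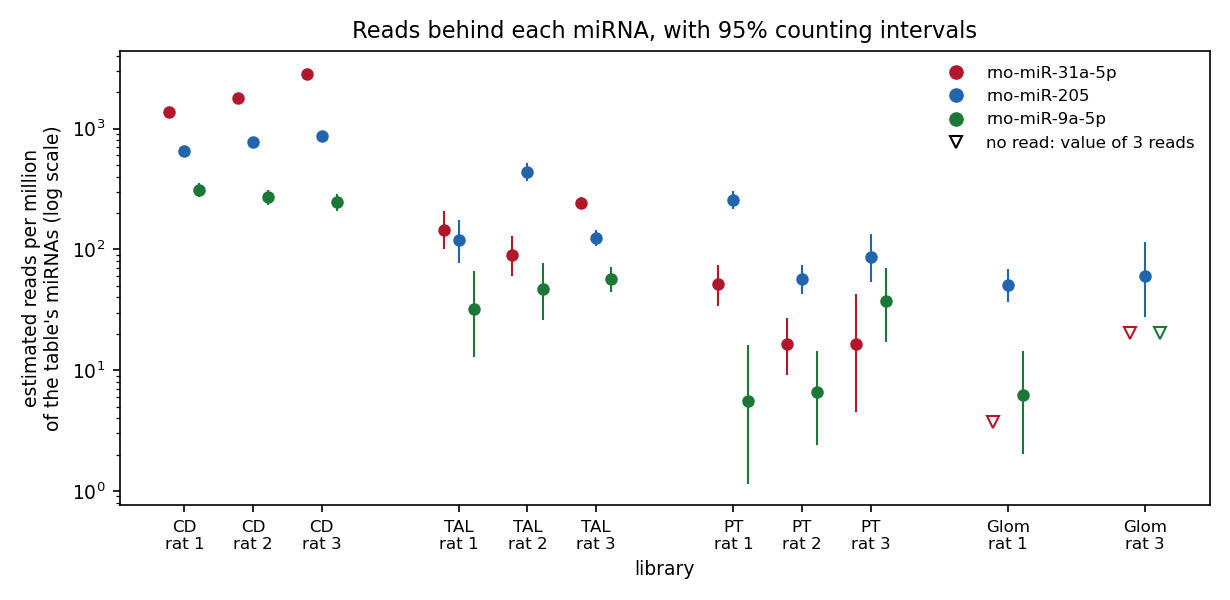
Estimated reads scaled to a common library size over the table's miRNAs (log scale) in each library, with exact 95% Poisson intervals that cover counting error only; open triangles mark the value of 3 reads where none was found. Intervals were narrow in the collecting duct and wide for miR-9a-5p in proximal tubule and glomerulus. Abbreviations are CD for collecting duct, TAL for thick ascending limb, PT for proximal tubule and Glom for glomerulus.

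The collecting duct levels were moderate in absolute terms. By segment mean miR-31a-5p ranked 35 of 188 there, miR-205 ranked 60 and miR-9a-5p ranked 76, and in single libraries they took 0.140% to 0.286%, 0.0663% to 0.0861% and 0.0269% to 0.0311% of the summed value. Among the 122 miRNAs with a collecting duct mean of at least 10, the 3 had the highest ratios of that mean to the highest mean of another segment. miR-31a-5p led at 17.2, before miR-9a-5p at 8.18 and miR-205 at 5.27. The next in this order were miR-96-5p at 3.27, miR-182 at 2.74 and miR-141-3p at 2.71. All 3 collecting duct libraries were above all 8 other libraries for each of the 3 miRNAs, which held for 6.38% of all 188 miRNAs. In the limma test of the collecting duct against the mean of the other segments, 12.2% of the 188 miRNAs passed, 10.6% as higher and 1.60% as lower. Since the 3 miRNAs were chosen for this pattern, nothing is read from these shares.

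**Figure D3:**
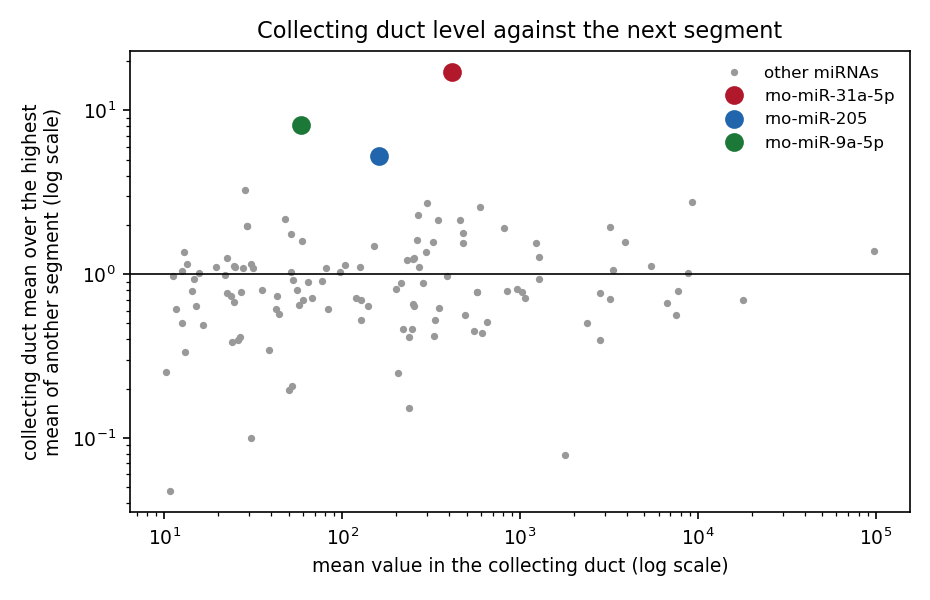
Ratio of the collecting duct mean to the highest mean of another segment (vertical axis, log scale) against the collecting duct mean (horizontal axis, log scale) for 122 miRNAs. The 3 coloured points, at 17.2, 8.18 and 5.27, lie above all others, the highest of which is miR-96-5p at 3.27.

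The make-up of the 3 within a library does not depend on how libraries are scaled to each other. Different miRNAs can be captured with different efficiency in library making, so the shares are compared between libraries and not read as molecules. miR-31a-5p made up 59.0%, 63.4% and 71.9% of the reads of the 3 miRNAs in the collecting duct of rats 1, 2 and 3. Its share was 49.2%, 15.7% and 57.1% in thick ascending limb, 16.3%, 20.5% and 11.8% in proximal tubule, and 0% in both glomerulus libraries. There were 2.13, 2.34 and 3.30 reads of miR-31a-5p for each read of miR-205 in the collecting duct, against 1.23, 0.206 and 1.94 in thick ascending limb and 0.199, 0.288 and 0.190 in proximal tubule. Collecting duct libraries thus had the highest ratios without overlap, but the gap was narrow, from 2.13 in rat 1 to 1.94 in thick ascending limb of rat 3. The latter rests on 314 and 162 reads, and whether the gap exceeds counting error was not tested. Thick ascending limb and proximal tubule overlapped, because the thick ascending limb library of rat 2 lay among the proximal tubule libraries. That library also had the highest miR-205 value outside the collecting duct, 53.3, and the lowest miR-31a-5p value of its segment, 9.82. miR-205 held most of the 3 miRNAs' reads in every proximal tubule and glomerulus library, at 61.8% to 82.0% in proximal tubule and 89.1% and 100% in the glomerulus.

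**Figure D4:**
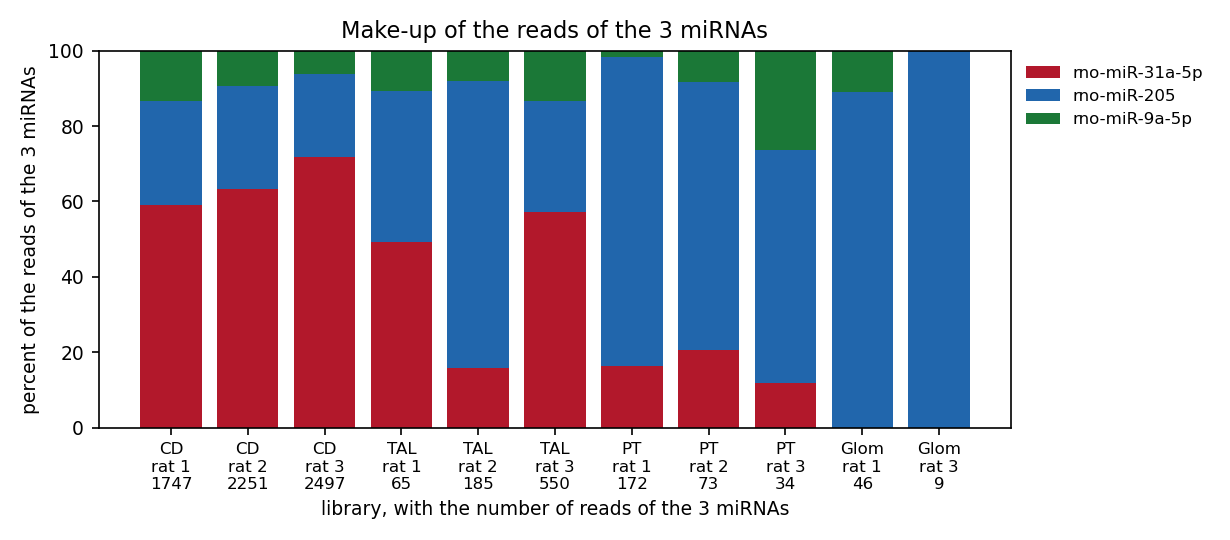
Share of each miRNA in the reads of the 3 (percent, vertical axis) for each library, with their number of reads under the bar; CD, collecting duct; TAL, thick ascending limb; PT, proximal tubule; Glom, glomerulus. miR-31a-5p is largest in the 3 collecting duct libraries, and miR-205 in all proximal tubule and glomerulus libraries, of which the rat 3 glomerulus holds 9 reads.

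Among the segments other than the collecting duct, miR-31a-5p differed between thick ascending limb and glomerulus. Its log2 difference was 4.61 ± 0.97 (SE, adjusted p = 4.5e-05, limma with Benjamini-Hochberg adjustment over 188 miRNAs), from 3 libraries against 2. Set against the glomerulus limit, its mean was at least 63.6-fold higher in thick ascending limb, a bound that limma did not test. That bound was 39.5-fold without the glomerulus of rat 3, 15.4-fold without that of rat 1 and 41.0-fold without the thick ascending limb of rat 3. This made 1 of the 3 miRNAs called in that comparison, where 11.2% of all 188 were called. Neither miR-205 nor miR-9a-5p passed. miR-205 had a log2 difference of 1.77 ± 0.85 (SE) and miR-9a-5p of 2.45 ± 1.17, each with adjusted p = 0.18. All 3 miRNAs were higher in every thick ascending limb library than in either glomerulus library, as were 18.1% of all 188.

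Between thick ascending limb and proximal tubule 0 of the 3 passed, where limma called 7.98% of all 188 miRNAs and 36 were at an unadjusted p below 0.05. miR-31a-5p had means of 24.2 ± 16.0 in thick ascending limb and 4.80 ± 2.15 in proximal tubule without overlap, a pattern of 6.38% of all miRNAs. Its log2 difference was 2.10 ± 0.84, with a 95% interval of 0.45 to 3.75, an unadjusted p of 0.013 and an adjusted p = 0.12 by limma. It passed without the glomerulus library of rat 1 or of rat 3 (adjusted p = 0.011 and 0.014) with the difference at 2.10 in each. It also passed under each of the 3 rescalings (adjusted p from 0.0073 to 0.022). It did not pass with flow cells A, B or D alone (adjusted p = 0.23, 0.084 and 0.44 by limma). Nor did it with the 8 libraries outside the collecting duct (0.27). Leaving out any single library other than glomerulus gave no call either, with an adjusted p of up to 0.54 by limma, without proximal tubule of rat 3. miR-205 had a log2 difference of 0.46 with an interval of −0.99 to 1.90. This turned negative without the rat 2 library of the thick ascending limb (−0.14) or of the proximal tubule (−0.28). miR-9a-5p had 1.48, with an interval of −0.50 to 3.47.

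Between proximal tubule and glomerulus 0 of the 3 passed, where limma called 17.6% of all 188 miRNAs. miR-31a-5p was read in all 3 proximal tubule libraries, 28, 15 and 4 times, and in neither glomerulus library. The proximal tubule was at least 12.6-fold above the glomerulus limit, a bound that limma did not test. The log2 difference was 2.51 ± 0.97 (SE), with an adjusted p = 0.055 by limma. That adjusted p was 0.039 when the rat was left out as a block. Without the glomerulus library of rat 1 the difference was 2.66. The bound was 7.83-fold without the glomerulus of rat 3 and 3.06-fold without that of rat 1. The 0 of the rat 3 glomerulus has an upper 95% Poisson limit of 3.69 reads in 147996, which is a higher share than the 15 of 914255 reads and 4 of 241314 reads in proximal tubule of rats 2 and 3, so that library alone cannot show a difference from them. After quantile normalization the log2 difference was 1.01 (adjusted p = 0.35 by limma), against 2.51. miR-205 was higher in every proximal tubule library than in either glomerulus library, as were 29.8% of all miRNAs, with a log2 difference of 1.31 ± 0.85 and an adjusted p = 0.31. miR-9a-5p had a difference of 0.96 ± 1.17 (adjusted p = 0.58). The median miRNA differed by 0.77 on the log2 scale in this comparison, against which these differences are to be read.

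**Figure D5:**
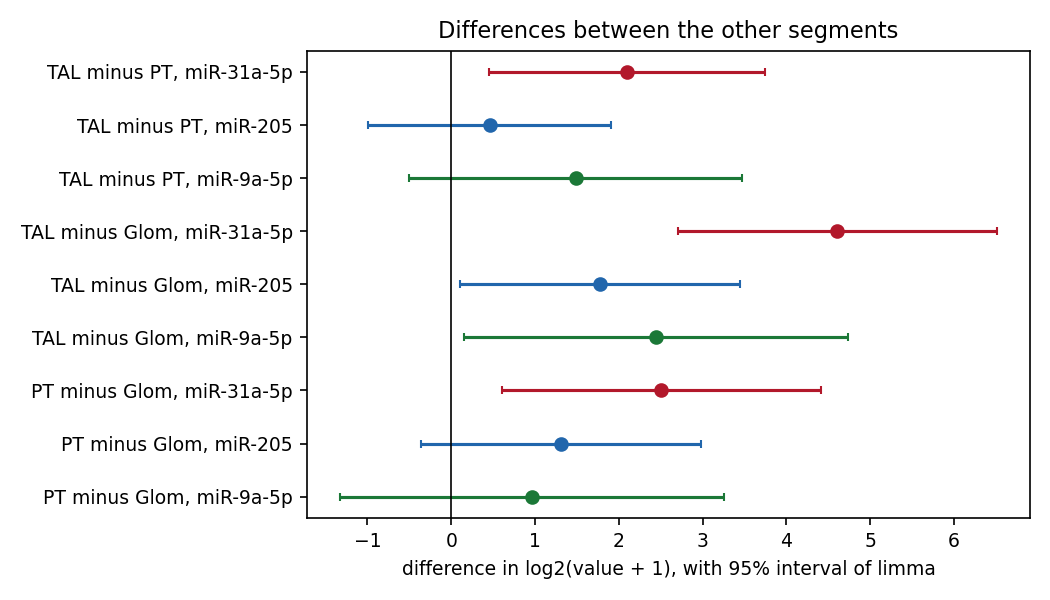
Differences in log2(value + 1) between thick ascending limb (TAL), proximal tubule (PT) and glomerulus (Glom) for each miRNA, with 95% intervals from limma; miR-31a-5p is at 0 in the glomerulus, so its fitted differences from it depend on the added 1. Intervals of miR-31a-5p lie above 0 in all 3 comparisons before adjustment, and those of miR-205 and miR-9a-5p include 0 in the comparisons that hold the proximal tubule.

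The order of segments was thus collecting duct, thick ascending limb, proximal tubule and glomerulus for each of the 3 miRNAs by mean. Below the collecting duct, limma called no step between neighbouring segments for any of the 3 in the main fit. Its only call there was that of miR-31a-5p between thick ascending limb and glomerulus. For miR-205 thick ascending limb and proximal tubule overlapped and limma called no difference. The same held for miR-9a-5p, and also for its proximal tubule and glomerulus. The variance in these tests comes from the trend over miRNAs of like mean and does not measure the spread of each miRNA. The rats did not keep an order across segments. miR-31a-5p was lowest in rat 1 in the collecting duct and highest in rat 1 in proximal tubule, and miR-205 was likewise lowest and highest in that rat. The limma F-test of the rat term called 0 of 188 miRNAs, with 8 at an unadjusted p below 0.05, and gave an unadjusted p of 0.68 for miR-31a-5p, 0.84 for miR-205 and 0.82 for miR-9a-5p (adjusted p = 0.99 each). In every rat the collecting duct was above each other segment labelled with that animal. For miR-31a-5p it was 12.0, 46.6 and 13.0 times the thick ascending limb in rats 1, 2 and 3. For miR-205 these ratios were 7.10, 3.76 and 7.54, and for miR-9a-5p 9.94, 11.4 and 5.15. The lowest of all within-rat ratios was that of miR-205 to the proximal tubule of rat 1, at 2.96.

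Repeat sequencing moved the collecting duct value of miR-31a-5p less than the rats differed. The 4 flow cells gave 237 to 264 for miR-31a-5p in rat 1, 422 to 481 in rat 2 and 527 to 551 in rat 3. The SD between flow cells was 0.07 on the log2 scale for miR-31a-5p in the collecting duct, against 0.56 between rats, and for miR-205 it was 0.16 against 0.36. The flow cells gave 92.0 to 134 for miR-205 in rat 1. For miR-9a-5p the SD between flow cells, 0.19, was close to the 0.25 between rats, and its runs in rat 3 went over 36.0 to 72.4. In the proximal tubule the SD between flow cells, 0.78 for miR-31a-5p and 1.11 for miR-9a-5p, was larger than that between rats, 0.59 and 1.02.

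The miRNAs most like each of the 3 were found by the root mean square difference of centred log2 profiles over the 11 libraries. For miR-31a-5p these were miR-9a-5p at 1.32, miR-141-3p at 1.50 and miR-205 at 1.78. For miR-9a-5p they were miR-92b-3p at 0.95, miR-141-3p at 0.97 and miR-205 at 1.02, and for miR-205 they were miR-92b-3p at 0.96, miR-9a-5p at 1.02 and miR-148a-3p at 1.06. miR-92b-3p, of the miR-25/92 seed family, averaged 594 ± 217 in the collecting duct, 232 ± 26.6 in thick ascending limb, 63.3 ± 20.8 in proximal tubule and 40.7 ± 1.47 in the glomerulus. miR-148a-3p was low throughout, at 5.55 ± 2.75 in the collecting duct and 0 in the glomerulus. The measure favours profiles of like amplitude, and miR-31a-5p, with the widest range of the 3, was in place 90 for miR-205. The points share libraries, scaling and depth.

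Of the lists fixed with earlier results known, the miR-200 family, which acts on the same ZEB factors as miR-205, was higher in the collecting duct in 4 of 4 measured members, where 10.6% of all miRNAs were. miR-141-3p averaged 300 ± 103 in the collecting duct, 111 ± 40.1 in thick ascending limb, 37.4 ± 39.5 in proximal tubule and 3.80 ± 1.29 in the glomerulus (log2 difference from the other segments 3.76 ± 0.55, adjusted p = 1.3e-09 by limma). miR-200a-3p, miR-429 and miR-200b-3p were higher by 2.06 ± 0.54, 1.89 ± 0.48 and 1.80 ± 0.44. The other arm, miR-200b-5p, was measured but is not in the list. It was higher by 1.58 ± 0.86 and did not pass (adjusted p = 0.29 by limma). Without the collecting duct library of rat 2, miR-200a-3p, miR-200b-3p and miR-429 lost their calls (adjusted p = 0.13, 0.10 and 0.14 by limma), as did miR-200a-3p without that of rat 3 (0.061), while miR-141-3p passed in every alternative. miR-200a-3p also lost its call when libraries were rescaled to the same total or by quantiles (adjusted p = 0.069 and 0.14). The same held with the rat as a random effect or flow cell D alone (adjusted p = 0.082 and 0.06 by limma). Without a variance trend miR-200a-3p and miR-200b-3p lost their calls (adjusted p = 0.19 and 0.078 by limma). The family was low in the glomerulus, which is part of that mean. The list median was 1.98, against 0.23 over all miRNAs.

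Other miRNAs of surface epithelia were also measured. Of miR-203a-3p, miR-203b-3p and miR-184, 0 of 3 measured members passed in the collecting duct, where 12.2% of all miRNAs did, so that a count of 0 says little. miR-203a-3p, known from skin, averaged 9.16 ± 8.24 in the collecting duct against 53.3 ± 14.6 in proximal tubule. Their list median was −0.998, against 0.23 over all miRNAs. Of the neural and neuroendocrine list, which holds miRNAs that share the brain with miR-9, 3 of 11 were measured, 0 were higher and 1 was lower, where 1.60% of all miRNAs were lower. That was miR-138-5p, with 0 in every collecting duct run against 35.0 ± 4.57 in the glomerulus (n = 2) and an adjusted p = 0.017 by limma. In the other tubule segments it was low, at 5.12 ± 5.12 in thick ascending limb and 3.48 ± 1.13 in proximal tubule. Its call was lost without the collecting duct library of rat 1 or rat 3, or when proximal tubule of rat 2 was left out (adjusted p = 0.13, 0.15 and 0.061). Flow cells B and D alone also gave no call (adjusted p = 0.055 and 0.058 by limma). miR-375-3p, known from endocrine cells, had 207 ± 65.4 in the collecting duct and 825 ± 521 in proximal tubule. It had 589 ± 130 in thick ascending limb and 18.9 ± 4.35 in the glomerulus. Its collecting duct libraries, at up to 281, lay below all thick ascending limb and proximal tubule libraries, at 434 or more, and above the glomerulus. The mean of the other segments joins higher and lower ones, so its adjusted p = 0.98 by limma does not show equal levels. The brain-typical miR-132-3p had 5.11 ± 5.74 in the collecting duct and did not pass (adjusted p = 0.54).

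Markers of other cell types also varied with the segment. The 3 measured leukocyte markers of 5 fixed, miR-142-5p, miR-150-5p and miR-155-5p, summed to 90.7 to 123 in the collecting duct, 25.1 to 43.3 in thick ascending limb, 29.5 to 51.6 in proximal tubule and 78.7 and 117 in the glomerulus, with miR-155-5p at 0 in the glomerulus. None of the 3 passed the limma test of the collecting duct against the other segments (adjusted p of 0.98, 0.15 and 0.063), where 12.2% of all miRNAs did, so that this count does not set them apart. Their list median was 1.33, against 0.23 over all miRNAs. The endothelial sum was 1935 to 3170 in the collecting duct against 1158 to 1801 in the other tubule segments. The smooth muscle, pericyte and mesangial markers, miR-143-3p and miR-145-5p, summed to 6635 to 8080 in the collecting duct, 4781 to 6094 in thick ascending limb and 6119 to 8034 in proximal tubule. In the glomerulus the endothelial sum was 4299 and 6290. Reads there were 0 of miR-31a-5p, 50 of miR-205 and 5 of miR-9a-5p. The part of these cell types in the collecting duct values was not tested. In bulk samples fewer cells of a type and less RNA per cell cannot be told apart.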

How the data were processed

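The deposited table holds signal values for 188 miRNAs in 44 runs, which the authors made by TMM normalization of read counts with miRNAs of low counts filtered out, per the name of their file. Per the submitters' processing notes, processing used Bowtie 1.0.0, Bowtie2 2.2.5 and Partek 6.0 on build rn6; the role of each is not given in the sources used here. Values of a library are means over its 4 flow cells, so n counts rats. Some names carry identical values in every library: let-7a-5p and miR-3596a, miR-210-3p and miR-3574, miR-181a-1-3p and miR-3570, and miR-378a-5p and miR-3557-3p. Shares of the 188 miRNAs, and the adjustment over them, therefore include repeated measurements. Whole reads were estimated from the step between low values of a run; 88.3% to 99.0% of values up to 30 reads were whole, too few for a count test of all miRNAs. In simulated runs the step was found in 44 of 44. Those runs held whole reads only, so they cannot show how low values that are not whole affect the step.

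Tests used limma 3.58.1 in R 4.3.3 on log2(value + 1), averaged over flow cells, with segment and rat as terms, a variance trend and all 11 libraries. P-values are two-sided and adjusted over 188 miRNAs at 0.05. The fit had 5 residual degrees of freedom and an infinite prior, which gives miRNAs of equal mean the same variance. A fold on this scale understates changes of low values. Ratios of means in the text are of the values themselves. A group at 0 is set at 3 reads over the group, converted with its mean summed value per library and its total reads. Tested on simulated data for thick ascending limb against proximal tubule, 77.4% of log2 changes of 3 and 22.3% of changes of 1 were recovered among 188 miRNAs.

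The rat was kept as a block because the labels tie segments to animals; the deviations of libraries of the same rat had a median correlation of 0.03 over 15 pairs. Members, lists and tests were chosen with earlier results of these data known. Named miRNAs are the 3 members, miRNAs sharing a seed or hairpin with them, the 3 most like each in profile, and members of the fixed lists; of these lists, those that pass for the collecting duct were to be named, and values of others were added where a list or marker sum is described. A list of red blood cell markers had 0 of 3 members measured.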

Additional observations from a re-analysis of the deposited data

How the results depend on the processing

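The collecting duct difference of the 3 miRNAs from the mean of the other segments, given with no test, stayed positive in all alternatives. It was 6.46 for miR-31a-5p (6.07 to 6.98 without single libraries), 3.26 for miR-205 (2.93 to 3.58) and 4.42 for miR-9a-5p (4.14 to 4.82). It moved by more than the SD over rats for miR-205 when rescaled to the same total (2.74) and by quantiles (2.62), and for miR-9a-5p by quantiles (3.84).

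Between thick ascending limb and proximal tubule, miR-31a-5p passed with flow cell C alone (2.80), median of ratios (2.48), same total (2.34) and quantiles (3.32), against 2.10, and ranged from 1.64 to 2.60 without single libraries. miR-205 ranged from −0.28 to 1.13 there, with −0.14 without the thick ascending limb library of rat 2. miR-9a-5p was −0.17 with flow cell C alone. Between thick ascending limb and glomerulus, miR-31a-5p passed in all alternatives (adjusted p up to 0.012), and miR-9a-5p passed by median of ratios alone (2.66, adjusted p = 0.048). Between proximal tubule and glomerulus, miR-31a-5p passed with a pseudocount of 0.5 (3.29), only miRNAs with a mean of at least 10 (2.51), no variance trend (2.51), no replicate block (2.31), flow cell B alone (2.71), median of ratios (2.35) and same total (2.49), against 2.51. It did not pass with flow cells A, C or D alone (2.50, 1.88 and 2.94), with the replicate block as a random effect (2.17), with the 8 libraries outside the collecting duct (2.66) or by quantiles (1.01, adjusted p = 0.35), and ranged from 2.02 to 3.05 without single libraries. miR-9a-5p was −0.0031 with flow cell D alone and −0.19 by quantiles. Without the replicate block no other call of the 3 changed. The cause was not tested.

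Of counts called, for thick ascending limb against proximal tubule, 15 became 8 without a variance trend, 9 and 5 with flow cells B and D alone, 7 with the 8 libraries outside the collecting duct, and 5 to 37 without single libraries (37 and 36 without glomerulus of rat 1 and rat 3). For thick ascending limb against glomerulus, 21 became 44, 43 and 32 by median of ratios, same total and quantiles, and 15 to 44 without single libraries (44 and 36 without those same libraries). For proximal tubule against glomerulus, 33 became 18 with flow cell D alone, 51 and 50 under the first 2 rescalings, and 20 to 73 without single libraries (73 when glomerulus of rat 1, and 20 when proximal tubule of rat 3, was left out). For the collecting duct against the others, 23 became 14 without a variance trend, 13 with flow cell D alone, 37 by same total, and 10 to 38 without single libraries (38 when glomerulus of rat 1 was left out; 13, 11 and 10 for collecting duct of rats 1, 2 and 3). The rat count of 0 reached 2 without either glomerulus library. Splits of calls moved too. Under median of ratios, same total and quantiles in that order, 2 higher and 13 lower in thick ascending limb against proximal tubule became 7 and 14, 7 and 15, then 9 and 13. In thick ascending limb against glomerulus, 15 and 6 became 23 and 21, 21 and 22, then 14 and 18. In proximal tubule against glomerulus, 26 and 7 became 29 and 22, 29 and 21, then 21 and 19. In the collecting duct, 20 and 3 became 22 and 10, 19 and 18, then 17 and 12. The median difference of all miRNAs shifted with them: −0.37 became 0.07, −0.07 and 0.09; 0.36 became 0.22, 0.13 and 0.02; 0.77 became 0.24, 0.24 and −0.04; and 0.23 became −0.06, −0.24 and −0.10. Without the glomerulus of rat 1, and then without that of rat 3, the last 3 splits were 40 and 4, then 12 and 24; 70 and 3, then 15 and 12; and 35 and 3, then 19 and 8. Ratios of means without single libraries were chosen after seeing the data. Depth limits miR-9a-5p outside the collecting duct, with 5 to 96 reads a segment.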
